A study of Homo sapiens with 2 samples.

Results

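The 787 peaks described here are Flag-Evi1Δ324 binding peaks of the autosomes whose midpoint lay within 5 Mb of a chromosome end. Membership rested on position alone, among 6565 autosomal peaks and 6943 peaks in the whole list. The part itself was chosen with earlier results of these data known. The outer segments comprised 39 chromosome ends, since for chromosomes 13, 14, 15, 21 and 22 only the q end was used. The other 5778 autosomal peaks, called interior below, served for comparison. The end was taken as position 0 or as the last base of the chromosome in build hg18.

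EVI1, encoded by MECOM, is a transcription factor with several zinc fingers arranged in separate DNA-binding domains, and it is an oncoprotein in myeloid leukaemia and is amplified in ovarian cancers. Δ324 names a shorter form of the protein that lacks some of the zinc fingers. The outer parts of human chromosome arms are on the whole rich in genes and in G and C, stain weakly with Giemsa, and pass into subtelomeric repeats and the telomere. These statements are background and were not measured here.

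The cells were SKOV-3, an established ovarian carcinoma line, transfected with a plasmid (pCMV-Flag-Evi1Δ324) and fixed with formaldehyde 3 days later. Precipitation used the Flag M2 antibody, which binds the tag on the plasmid's protein; the cells' own EVI1 carries none. Besides this 1 ChIP library there is 1 input library, from chromatin before precipitation, and neither has a replicate. The input library was not analysed here, and the labels name no Flag control from untransfected cells. All intervals below are 95% intervals for counting error within this 1 list, with each peak counted as independent. Many peaks lay close together (319 near-end peaks, 40.5%, in runs with steps of at most 10 kb), so the intervals are likely too narrow. They say nothing of the spread between cultures, and no test between groups of samples was possible.

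Each peak came with a fold over a background and a number of tags, the short reads counted in it. Folds near the ends ran from 3.94 to 74.4 with a median of 16.4, against a median of 14.7 in the interior. Tags ran from 5, the minimum of the list, to 257. Exactly 5 tags supported 313 of the 787 (39.8%), against 3563 interior peaks (61.7%). Widths were alike, with medians of 132 bp near the ends and 126 bp in the interior. No filter was applied, so every one of the 787 peaks enters the counts.

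Peaks were denser near the ends than along the rest of the autosomes, and the size of the excess depended on how many tags a peak had. The outer segments made up 191 Mb, or 7.14%, of the 2681 Mb of placed autosomal sequence and held 11.99% of the peaks (exact 95% interval 11.2 to 12.8). This was 1.68 times the number expected from length (1.57 to 1.79), or 4.11 peaks per Mb against 2.32 in the interior. With peaks at most 1 kb apart joined into 1, the ratio over all tags was 1.43 (1.32 to 1.54). Peaks of 5 tags were only 1.13 times the expected number (1.01 to 1.26). Once peaks closer than 1 kb were joined into 1, the ratio at 5 tags was 0.986, and at 10 kb it was 0.948, both with intervals that included 1. Joining adds tags, so a 5-tag peak with a close neighbour leaves the 5-tag class by construction, and near-end peaks of 5 tags had such neighbours more often. The interval of the ratio also included 1 without chromosome 19 (1.10, 0.981 to 1.23), without chromosomes 7 and 19 (1.09, 0.971 to 1.22), without chromosomes 16 and 19 (1.08, 0.953 to 1.21) and with a limit of 10 Mb (1.06, 0.985 to 1.14).

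The ratio was larger in each class of more tags up to 99. It was 1.65 at 6 tags (1.41 to 1.92), 1.98 at 7 (1.55 to 2.47), 3.65 at 8 to 19 (3.21 to 4.11) and 5.57 at 20 to 99 (4.47 to 6.73). In the last of these classes 60 of 151 autosomal peaks (39.7%, 31.9 to 48.0) lay near an end. At 100 tags or more 3 of 42 did, a ratio of 1.00 with an interval of 0.210 to 2.73. Of the 39 interior peaks in this top class, 24 were centromeric or heterochromatic, counting 1 Mb around each centromere, and 37 had a fold under 10. The 15 outside centromeric stretches also had a low median fold, 2.85. The 787 near-end peaks included 0 centromeric or heterochromatic ones, by construction, since the outer segments hold no such bands. Leaving that group out of the interior can therefore only raise the near-end share. Without it, 60 of 123 peaks of 20 to 99 tags (48.8%) were near an end.

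Across the list 14.3% of autosomal peaks had 8 tags or more. Near the ends the count was 257 of 787 (32.7%), and in the interior 681 of 5778 (11.8%). The density of such peaks was 1.34 per Mb near the ends and 0.273 in the interior, a ratio to expectation of 3.84 (3.44 to 4.26). With peaks at most 1 kb apart joined, this ratio to expectation was 3.39 (2.99 to 3.82).

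**Figure D1:**
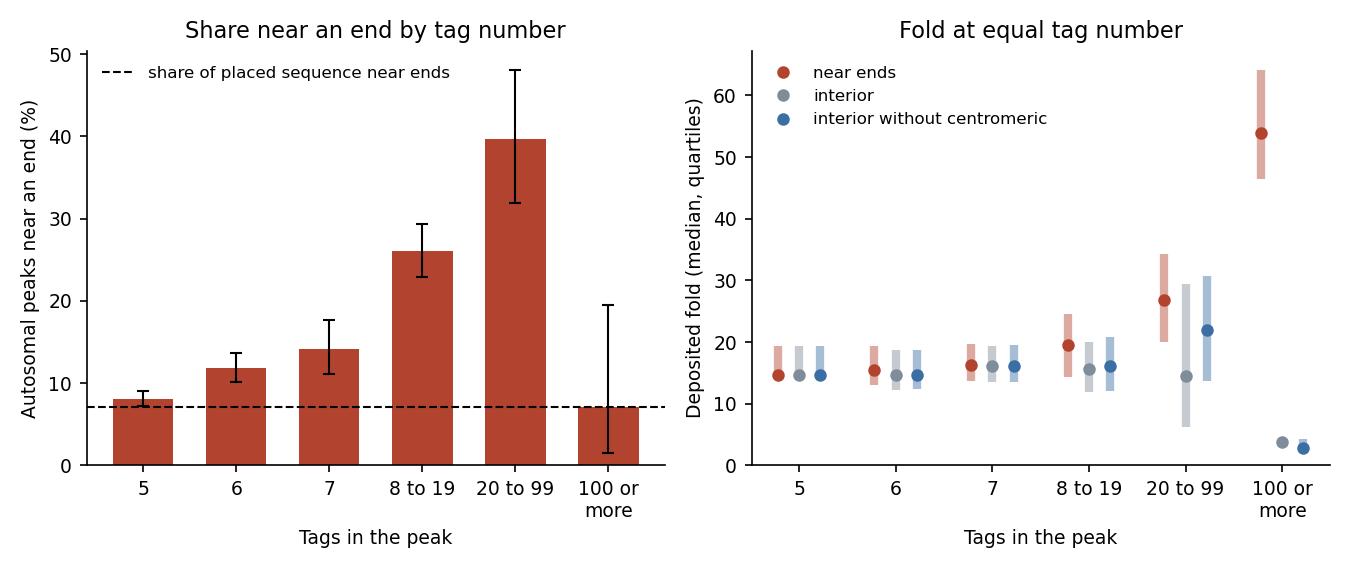
Left, the percent of autosomal peaks in each tag class that lay within 5 Mb of an end, with exact 95% intervals and, dashed, the 7.14% of placed sequence found there; the bars go from 8.08% at 5 tags to 39.7% at 20 to 99. Right, the median fold (points) and its quartiles (bars) in the same classes near the ends, in the interior, and in the interior without centromeric peaks; at 5 tags all 3 medians are 14.7, and the near-end median is the highest at 8 to 19 and at 20 to 99.

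For peaks of 8 tags or more the density was highest at the tip and lower further in. Over all tags it was 4.96 per Mb in the outermost Mb and 5.13 in the next, then 3.39, 4.26 and 2.85. In these bins of 1 Mb, counted from the nearest end, peaks of 8 tags or more numbered 2.01 per Mb in the outermost bin (Poisson 95% interval 1.58 to 2.52), 1.74 in the next, then 1.10, 1.19 and 0.699 (0.461 to 1.02) in the bin from 4 to 5 Mb. In the 1 Mb bins from 5 to 20 Mb the values were between 0.206 and 0.620, with a median of 0.359. Peaks of 5 tags did not show the same fall, at 1.32 to 1.88 per Mb in the outer 5 bins and 1.18 to 1.81 beyond. The share of peaks with 8 tags or more was 40.5% in the outermost Mb and 24.5% from 4 to 5 Mb. The median fold went from 17.9 in each of the outer pair of bins to 14.7 in the fifth. In the 1 Mb bins from 5 to 20 Mb it varied between 14.7 and 17.3, below the outer pair throughout.

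**Figure D2:**
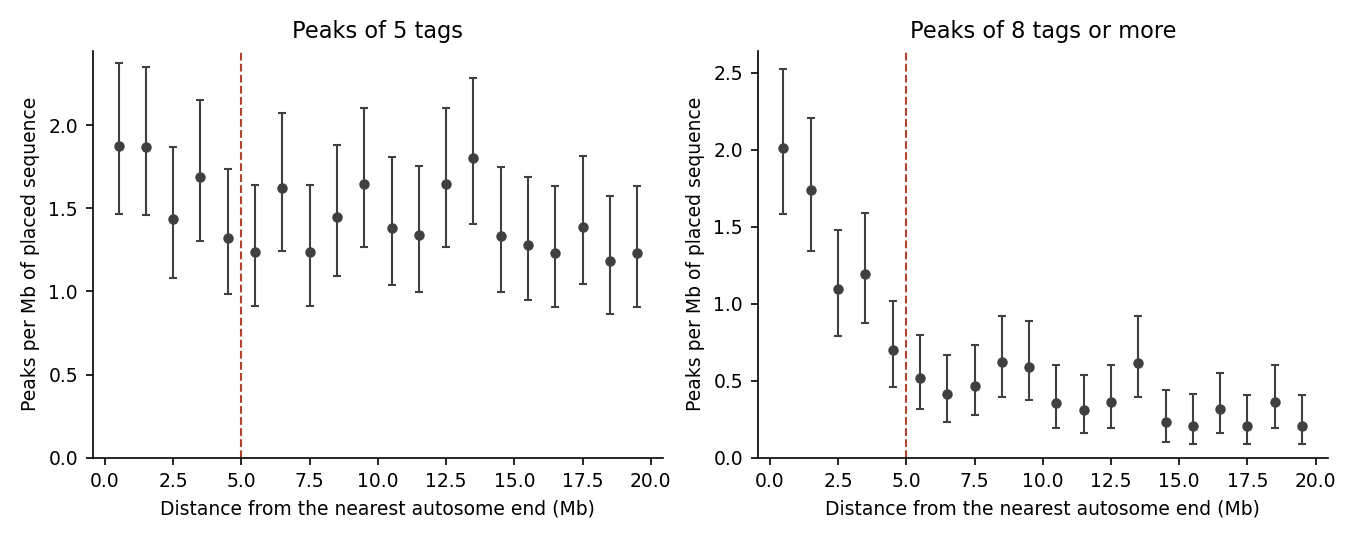
Peaks per Mb of placed sequence (vertical) by distance from the nearest autosome end in Mb (horizontal), pooled over the 39 ends in 1 Mb bins, for peaks of 5 tags (left) and of 8 tags or more (right); bars are Poisson 95% intervals and the dashed line marks 5 Mb. The right panel goes down from 2.01 to 0.699 within the outer 5 Mb. The left panel lies between 1.18 and 1.88 throughout and is highest in the outermost bins (1.88 and 1.87).

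The limit of 5 Mb fell on a slope, not at a step. The 5 peaks just inside it were in 22q13.31 (folds of 20.9 and 8.40 with 9 and 12 tags), 13q34 (18.6), 6p25.1 (13.0) and 16p13.3 (14.5), the last 3 with 5 tags each. The 5 just outside were in 13q34 (17.3), 11p15.4 (14.7), 20p12.3 (19.4), 10q26.2 (14.7) and 22q13.31 (18.6), with 5 to 7 tags. With a limit of 2 Mb the ratio was 2.06 over all tags and 5.35 at 8 tags or more; with 10 Mb it was 1.37 and 2.65.

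The ends differed widely among themselves. Counts ran from 3 to 61 peaks with a median of 16. The short arm of chromosome 19 led with 61 peaks, 12.2 per placed Mb (Poisson 95% interval 9.35 to 15.7), against 4.22 in the rest of that arm. It was followed by 16q at 9.25 per Mb, 16p at 8.40, 12q at 7.76, 22q at 6.60 and 20q at 6.17. The intervals of 19p and 16q overlapped, as did those of neighbours further down this order. The 4 ends of chromosomes 16 and 19 held 166 of the 787 peaks (21.1%), although 19q was not dense (3.40 per Mb against 4.02 in its interior). Without both chromosomes the ratio over all tags was 1.54 and at 8 tags or more 3.56.

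At the other extreme, 9p had 3 peaks (0.600 per Mb, 0.124 to 1.75), 2p had 4 (0.811), and 12p, 17p, 7q and 7p had 6 each (1.20 to 1.25). The 4 peaks of 2p all lay in 2p25.3 with 5 tags each, and the 3 of 9p had 5 or 6 tags and folds of 19.4 to 19.6. Both ends of chromosome 7 were still above the rest of their arms, where peaks were rarer yet (0.510 per Mb on 7p and 0.530 on 7q). Over all ends, q ends held 4.50 peaks per Mb (4.11 to 4.92) and p ends 3.62 (3.22 to 4.05).

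Set beside the interior of its own arm, the outer segment was denser at 30 of 39 ends. At 5 tags it was denser at 23 and sparser at 16, with a median ratio of 1.13 over the ends. At 8 tags or more it was denser at 31, and the median ratio was 3.22. There were 12 ends at which the outer segment had fewer peaks of 5 tags per Mb but more of 8 tags or more.

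On several arms peaks of 8 tags or more were common near the end and rare in the interior. On 13q, 8 of 16 near-end peaks had 8 tags or more, against 2 of 185 in the rest of the arm. On 6q the counts were 11 of 27 against 8 of 291, on 21q 11 of 28 against 3 of 77, on 11p 13 of 28 against 7 of 114, and on 16q 22 of 46 against 14 of 113. On 1p, 13 of 25 near-end peaks had 8 tags or more, against 40 of 316 in the interior, and 3 of the 25 had exactly 5. Part of these near-end counts came from single short stretches. A stretch of 1.80 kb held 4 of the 8 on 13q, and 1 of 1.51 kb held 6 of the 11 on 6q. On 11p 4 of the 13 lay within 1.31 kb, on 16q 4 of the 22 within 2.09 kb, and on 1p 5 of the 13 within 28.4 kb. In 30 of the 39 arms the share with 8 tags or more was higher near the end. The other 9 arms were 2p, 8p and 9p with 0 such peaks near the end, and 2q, 3q, 7q, 10p, 12p and 18p. On 12p, 1 of 6 near-end peaks had 8 tags or more against 17 of 46 in the interior, and on 2q 1 of 22 against 32 of 366. These 9 ends held 3 to 22 peaks each, and the differences on single arms were not tested.

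**Figure D3:**
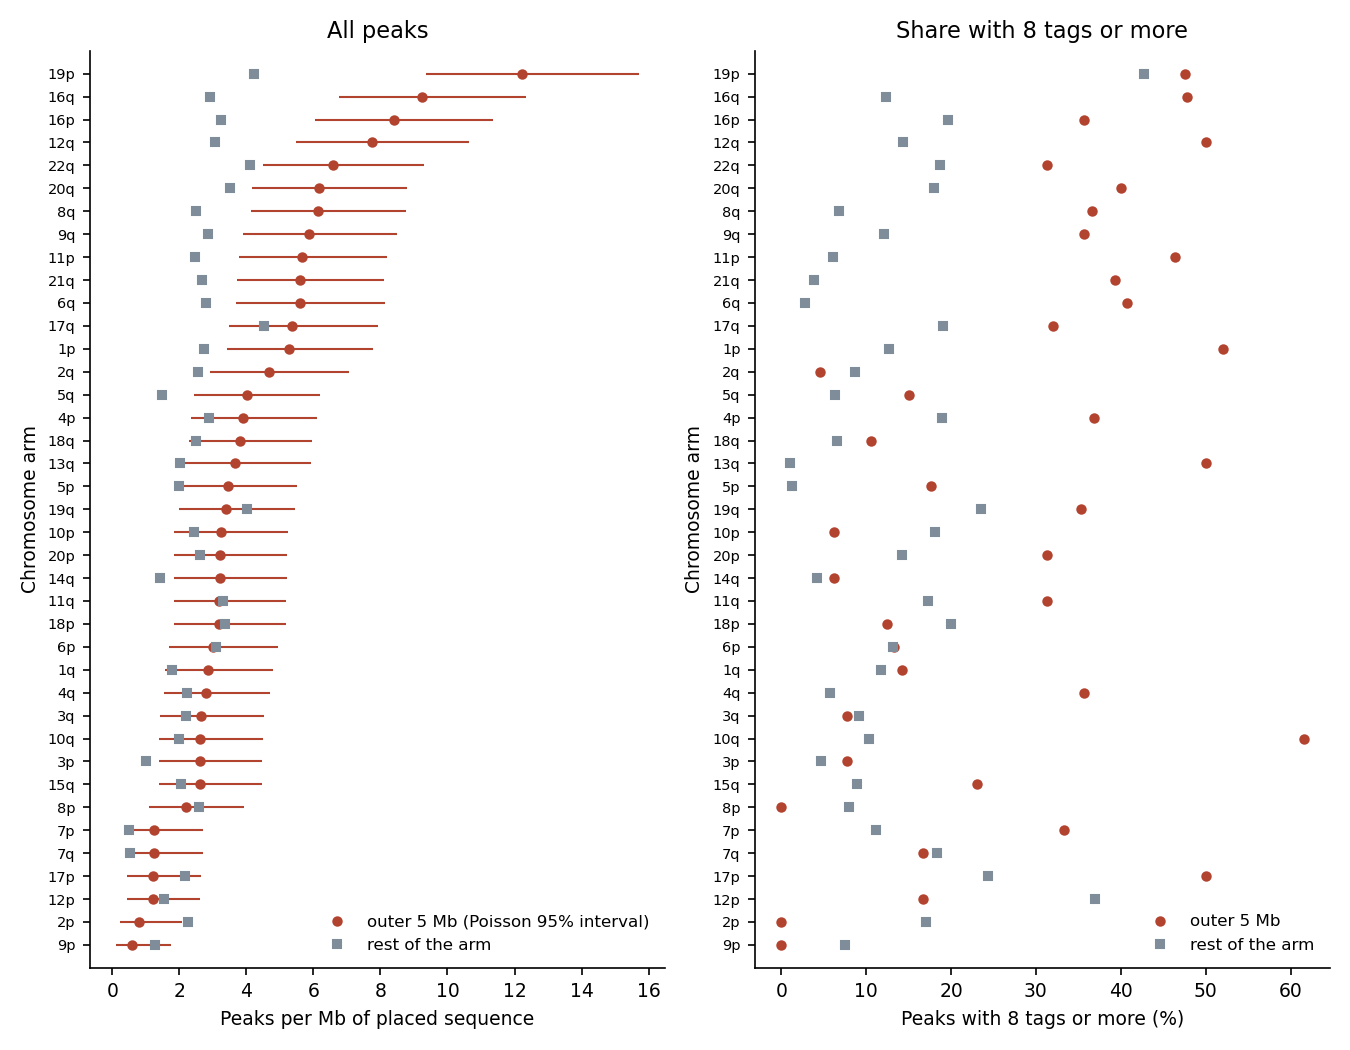
Each row is a chromosome arm, ordered by peak density in its outer 5 Mb. Left, peaks per Mb of placed sequence near the end (circles, Poisson 95% intervals) and in the rest of the arm (squares), from 12.2 at 19p down to 0.600 at 9p; right, the percent of peaks with 8 tags or more in the same segments, higher near the end in 30 of 39 arms.

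The fold was then compared at equal tags or within a tag class. Each near-end peak was set beside the median fold of interior peaks of its own arm with the same number of tags, or, where the arm had fewer than 5 of these, of the same tag class (at least 3 peaks). At 8 to 19 tags 41 peaks were matched on the number itself and 136 on the class. At 20 to 99 tags all 32 matches within arms were on the class. An interior median was found for 736 of 787 peaks. Of these, 404 lay above it, 285 below and 47 on it, so 58.6% of those that differed were above (54.9 to 62.3), and the median log2 difference was 0.10.

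The difference was larger among peaks with more tags. At 5 tags, 142 were above and 131 below (52.0%, 45.9 to 58.1), and the median fold was 14.7 in both sets. At 6 tags the share above was 56.0% (47.7 to 64.1) and at 7 tags 57.4% (44.1 to 70.0), with intervals that included 50%. At 8 to 19 tags, 123 of 175 were above (70.3%, 62.9 to 76.9), with a median log2 difference of 0.36. The median folds in this class were 19.5 near the ends (18.2 to 19.7) and 15.6 in the interior (14.9 to 16.2), and the quartiles of the sets overlapped, at 14.3 to 24.5 and 11.9 to 20.02. Matching without regard to arm, where 191 of 194 peaks were matched on the tag number itself, gave 67.9% above. Within arms, leaving centromeric peaks out of the interior gave 66.1%.

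Among peaks of 20 to 99 tags the outcome depended on how interior peaks were matched. The median fold was 26.8 near the ends (22.2 to 29.4) and 14.5 in the interior (8.43 to 20.6), but 28 of the 91 interior peaks in this class were centromeric or heterochromatic. Without those, the interior median was 22.02 (18.0 to 29.4), an interval that overlaps the near-end one. Only 32 of the 60 near-end peaks had enough interior peaks in their arm, and 20 were above and 10 below (66.7%, 47.2 to 82.7). Without centromeric peaks 14 were above and 13 below, so a higher fold was not detectable within arms at this number of peaks. Matching on the tag number or class over all arms kept all 60 peaks, and 43 were above and 16 below (72.9%, 59.7 to 83.6). Without centromeric peaks 40 were above and 20 below in that match (66.7%, 53.3 to 78.3).

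By arm, 20 ends had at least 3 matched peaks of 8 tags or more. The median log2 difference from the interior was above 0 at 14 and below 0 at 5 of them. It was 1.11 on 11p, where all 9 peaks were above, 0.79 on 4p (6 of 7 above), 0.61 on 16q (19 of 22), 0.59 on 20q (9 of 12) and 0.41 on 19p (20 of 29). On 11p 4 of the 9 lay within 1.31 kb, and all 9 were set beside the same interior median, 13.46, from 7 peaks. The median log2 difference was negative on 5q (-0.48, 2 of 3 below), 4q (-0.31, 4 of 5), 20p (-0.25, 2 of 4), 17q (-0.22) and 22q (-0.11, 5 of 10). On 20p and 22q as many peaks were above as below. On 17q 5 of 7 matched peaks were below, although that end holds the peak with the highest fold of all autosomal peaks, which was not matched because the arm had fewer than 3 interior peaks of its class.

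Folds of 20 or more were found in 11.7% of autosomal peaks. The count near the ends was 193 of 787 (24.5%), against 575 of 5778 (9.95%). At 5 tags the shares were 9.27% (6.29 to 13.0) and 6.43% (5.64 to 7.28), with overlapping intervals. At 8 to 19 tags, where 29.5% of autosomal peaks passed, they were 42.3% (35.2 to 49.6) and 25.05% (21.5 to 28.9). At 20 to 99 tags, where 55.0% passed, 45 of 60 near-end peaks did (62.1 to 85.3%) and 41.8% (31.5 to 52.6) of interior peaks, or 60.3% (47.2 to 72.4) without centromeric ones. Folds of 30 or more, found in 0.990% of autosomal peaks, were given by 35 near-end peaks (4.45%) and 30 interior ones (0.519%). Folds under 10 were about as rare near the ends, in 31 peaks (3.94%), as in the interior, in 231 of 5778.

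**Figure D4:**
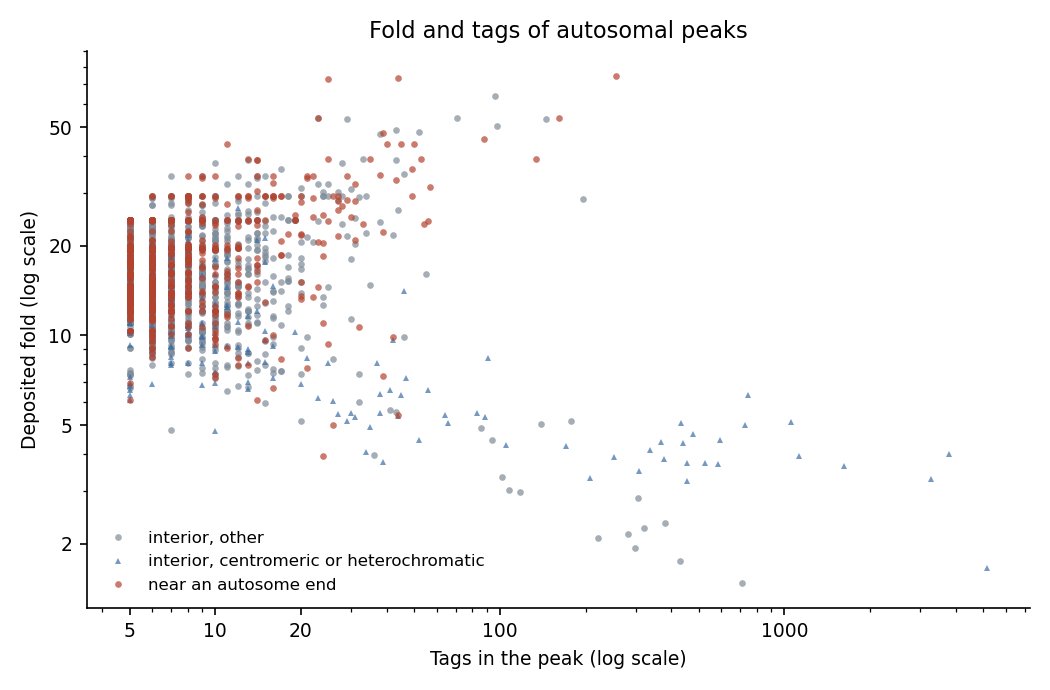
Deposited fold (vertical, log scale) against tags in the peak (horizontal, log scale) for each autosomal peak, with centromeric or heterochromatic interior peaks as triangles. Peaks near an end (red) include the one of 257 tags and fold 74.4 and share the upper part of the plot at 20 to 99 tags with interior peaks, while most interior peaks of 100 tags or more have a fold under 10.

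Widths, matched in the same way, differed little over all tags. Of 728 matched peaks that differed in width from the interior median of their arm, 359 were wider and 369 narrower (49.3% wider, 45.6 to 53.0). At 8 to 19 tags the medians were 192 bp near the ends and 195 bp in the interior; 52.0% were wider within arms (44.4 to 59.5), but 40.2% (33.2 to 47.5) when matched on tags over all arms. At 6 tags 41.3% were wider (33.4 to 49.7). At 20 to 99 tags, 24 of 32 matched near-end peaks were wider (56.6 to 88.5%), with a median of 430 bp against 326 bp for the interior medians they were set beside. Without centromeric peaks in the interior 21 of 29 were wider (52.8 to 87.3%), and within Giemsa-negative bands 13 of 23 (34.5 to 76.8%).

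Many folds were whole multiples of a step of 4.90 (within 0.01). At 5 tags such folds made up 40.3% of near-end peaks (34.8 to 45.9) and 37.3% of interior ones (35.7 to 38.9). At 8 to 19 tags the shares were 29.4% (23.1 to 36.3) and 13.6% (10.9 to 16.8). Among the peaks on a multiple in this class the median was 5 steps in both sets. The step was found from the values themselves, and the sources used here do not say what it stands for.

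Giemsa staining of the segments was compared next, because the density of interior peaks differed between classes. It was 2.61 per Mb in Giemsa-negative bands, 2.71 in the lightly staining class gpos25 and 1.75 in the darkest class, gpos100. The darkest class has no placed sequence near the ends. Giemsa-negative bands made up 77.2% of placed sequence near the ends and held 657 of the 787 peaks (83.5%, 80.7 to 86.0). In the interior they made up 42.5% and held 47.8%. Within these bands the density was still higher near the ends, at 4.45 per Mb (4.11 to 4.80) against 2.61 (2.51 to 2.71). At 8 tags or more the ratio of the near-end to the interior density in Giemsa-negative bands was 3.99 (1.47 per Mb against 0.368). At 5 tags it was 1.17. These are not the ratios to the expected number given above. Over all bands the densities at 8 tags or more were 1.34 and 0.273 per Mb, so the relative difference was smaller within Giemsa-negative bands.

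The lightly staining bands of class gpos25 held 79 near-end peaks. At 8 tags or more they had 1.31 per Mb (0.899 to 1.83) against 0.441 in interior bands of that class. At 5 tags they had 0.949 per Mb (0.608 to 1.41) against 1.53 in the interior, a lower value with an interval that just overlapped (1.36 to 1.73). Class gpos50 held 46 near-end peaks, 7 of them with 8 tags or more, and gpos75 held 5. With both sets restricted to Giemsa-negative bands, 55.9% of near-end folds lay above the matched interior median of the arm (51.7 to 60.0). At 8 to 19 tags 71.9% did (63.9 to 79.0), with 134 of 146 matched on the tag class and not the number. At 5 tags 46.2% did (39.8 to 52.8).

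Peaks near the ends also had close neighbours more often. A following peak lay no more than 10 kb away for 204 of 787 (25.9%, 22.9 to 29.1), against 446 of 5778 (7.72%, 7.04 to 8.44) in the interior. Within 2 kb the shares were 21.7% and 5.02%, and within 50 kb 38.5% and 18.3%. Among peaks of 8 tags or more, 64.6% near the ends (58.4 to 70.4) and 42.9% in the interior (39.1 to 46.7) had another peak within 10 kb on either side. Among peaks of 5 tags the shares were 23.6% and 7.52%. Most of the neighbours near the ends were very close: after peaks at most 1 kb apart were merged, the share within 10 kb there was 7.02%. The interior share after merging was not computed, so this value cannot be set beside the 7.72% given above.

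Linked by steps of at most 10 kb, 319 near-end peaks (40.5%) formed 115 runs. Of these runs 69 were pairs, 23 had 3 peaks and 23 had 4 or more. The longest run had 8 peaks within 2.49 kb of 19p13.3 (chr19:344517-347003), with 5 to 50 tags, 153 tags in all and folds of 14.7 to 44.1. The next, 7 peaks within 1.98 kb (chr19:393194-395170), was in the same band, with 98 tags and a median fold of 24.5. Together these 2 stretches of under 3 kb held 15 of the 61 peaks at that end.

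The other runs named by the rule had 6 peaks each. In 8q24.3 (chr8:143821837-143825446) they held 105 tags with a median fold of 26.4, and in 6q27 (chr6:168856563-168858072) 76 tags with a median of 18.8, all 6 of them with at least 8 tags. The run in 1p36.32 (chr1:2595683-2624079) was unlike the rest. It was spread over 28.4 kb and held 138 tags, yet its median fold was 8.85. The same band held a peak of 24 tags with a fold of 3.94 (chr1:2575988-2576284), the lowest of any peak near an end, and beside it 1 of 39 tags with a fold of 7.32. These and the next were named after their values were seen.

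Of the 63 near-end peaks with 20 tags or more, 7 had a fold under 10, and 4 of the 7 were in 1p36.32. Apart from 1p36.32, the lowest was in 22q13.33 (chr22:49429113-49429494), with 26 tags and a fold of 4.99, where interior peaks of its arm and tag class had a median fold of 27.6. The other 2 were in 11q25 and 15q26.3.

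The peak with both the most tags and the highest fold was in 17q25.3 (chr17:76518246-76519028), 783 bp wide, with 257 tags and a fold of 74.4, at 2.26 Mb from the end. In 11p15.5 the peak at chr11:2104691-2105264 had 44 tags and a fold of 73.5. That at chr11:1371572-1372935 had 161 tags, a fold of 53.9 and a width of 1364 bp. The end of 11p as a whole had 4 peaks of 20 tags or more and the interior of that arm 0. Which gene, if any, a peak belongs to was not determined, since no annotation of hg18 was used here.

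Neighbouring peaks lay side by side in 1q44, at chr1:245015735-245015945 with a fold of 72.7 and 25 tags, and at chr1:245015509-245015682 with 48.0 and 39 tags. They were the only peaks of 8 tags or more among the 14 near that end. The others with the highest folds were in 16q24.3 (chr16:87262086-87262308, fold 53.9, 23 tags), 2q37.3 (chr2:240785871-240787066, fold 45.7, 88 tags), and, each with a fold of 44.1, 19p13.3 (chr19:344643-345318, 50 tags), 4p16.2 (chr4:3346669-3347291, 45 tags) and 10q26.3 (chr10:134717205-134717711, 40 tags). Of these 10 peaks only that of 4p16.2 lay outside Giemsa-negative bands. Against interior peaks of its arm and class, the peak of 2q37.3 was higher by 2.71 on the log2 scale and that of 4p16.2 by 2.40. Both references were low and rested on few peaks, with medians of 6.965 from 6 and 8.34 from 4. Over all arms the interior median fold at 20 to 99 tags was 14.5, or 22.02 without centromeric peaks. For 5 of the 10 the arm had fewer than 3 interior peaks of the class, so no match was made.

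The 10 peaks with the most tags held 959 tags, 12.8% of the 7477 tags in near-end peaks. Of these, 4 were also among the 10 highest folds, and the lowest fold among them was 23.7. Besides those already given, neighbouring peaks lay side by side in 16q24.3, with 54 tags (chr16:88174698-88175347, fold 23.7) and 53 tags (chr16:88174059-88174689, fold 39.1). The rest lay in 9q34.3 (chr9:139794248-139795861, 134 tags, fold 39.1), 21q22.3 (chr21:45400360-45400858, 57 tags, 31.5), 13q34 (chr13:113771760-113772645, 56 tags, 24.2) and 18q23 (chr18:75157823-75158419, 49 tags, 36.3). On 18q this was 1 of 2 peaks with 8 tags or more among 19, and on 2q the peak of 88 tags was the only one among 22. By contrast 29 peaks on 19p, 22 on 16q and 19 on 12q had 8 tags or more, and 11 of the 29 on 19p lay in the 2 longest runs.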

How the data were processed

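The authors deposited a peak list of the ChIP library without a header. From the values, 1 column was read as the authors' fold, a ratio of the peak to a background, and another as a tag count per peak. Per the submitters' processing notes, coordinates refer to hg18; for the aligner, peak caller, thresholds and sequencing depth, nothing is given in the sources used here. Ends, bands and placed contigs of hg18 came from R 4.3.3 with circlize 0.4.16, IRanges 2.36.0 and GenomeInfoDb 1.38.1; computations used Python 3.11.15, numpy 2.4.6, pandas 2.3.3 and scipy 1.17.1, with exact binomial (Clopper-Pearson) and Poisson 95% intervals. Tags come from amplified DNA without molecular identifiers, so intervals cover counting error only. Scripts were tested on simulated data.

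The members and comparisons were chosen with earlier results of these data known. Peaks named were the 10 near-end peaks highest in fold and in tags, the 5 inside and outside the limit and the 5 longest runs (ties by tags); ends named were the 6 densest and 6 sparsest, and those going against the rest. Gene features and sequences, planned in case a genome of hg18 was at hand, were not analysed here. Alternatives were other limits and ends, merging, leaving out chromosomes, centromeric stretches or tag classes, and other matching.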

Additional observations from a re-analysis of the deposited data

Results flagged for a closer look

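Chromosomes X and Y entered no comparison, yet their outer 5 Mb also held peaks, which is what brought them here. There were 10 on Xp (69 tags, median fold 14.7) and 6 on Xq (58 tags), 1 of the latter with 32 tags. The reference Y had 13 peaks near its p end (90 tags, median fold 19.6) and 6 near its q end, which held 190 tags, 141 of them in 1 peak, at a median fold of 5.65. SKOV-3 is an ovarian carcinoma line. In the outer 2.7 Mb of the p ends, where the reference X and Y carry the same pseudoautosomal sequence, X had 7 peaks with 54 tags and Y 13 with 90. There 5 of the X peaks had a Y peak within 1 kb of the same position, and 2 pairs overlapped. No control value was at hand for these counts.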

How the results depend on the processing

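Over 101 values recomputed under alternatives, 74 stayed within the interval of the main value, 25 moved outside it and 2 changed side. Leaving out chromosomes 16 and 19 was added after seeing the data. The 2 that changed side were the ratio of 5-tag peaks near ends, 0.986 and 0.948 with merging at 1 and 10 kb, which itself moves 5-tag peaks with neighbours to higher classes. Density ratio here means the number of near-end peaks over that expected from length. By limit (2 and then 10 Mb), it was 2.06 and 1.37, and at 8 tags or more 5.35 and 2.65. At the same limits close neighbours were 29.5% and 21.2% and the Giemsa-negative share 94.3% and 73.6%. At 2 Mb the 5-tag ratio was 1.29 and the share of folds above in Giemsa-negative bands 61.5%; at 10 Mb the share of folds above at 8 to 19 tags was 62.8%. Merging at 1 and 10 kb gave density ratios of 1.43 and 1.38, and 3.39 and 3.17 at 8 tags or more; at 1 kb 7.02% had a close neighbour. With at least 6 tags the density ratio was 2.47, folds above 63.0% (62.8% in Giemsa-negative bands) and close neighbours 29.5%. Without centromeric stretches the ratio at 8 tags or more was 4.26. Without chromosomes 16 and 19 the density ratio was 1.54 and close neighbours 21.4%. Neighbours within 2 and 50 kb were 21.7% and 38.5%, by construction. The cause of the other shifts was not tested. Over the alternatives the share of folds above at equal tags and arm was 55.2% to 63.0%, and the wider share 46.7% to 51.7%. The 10 kb merging leaves no close neighbours to count, and a minimum of 6 tags leaves no 5-tag peaks; gene and sequence features were not run. Few interior peaks of 20 tags or more per arm limit the comparison in that class. No paired analysis was possible because each group has 1 library and only the ChIP library was analysed.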
